A study of Mus musculus with 23 samples.

Results

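Cdx1, Cdx2, Cdx4, Meis1, Meis2, Meis3, Pknox1, Pbx2 and Pbx3 are homeobox genes whose proteins act upstream of, or together with, the Hox proteins. They were chosen by name, as 1 entry each among the 36814 genes of the count tables, and all 9 were among the 16155 genes with enough reads to test. Their Ensembl identifiers are ENSMUSG00000024619 (Cdx1), ENSMUSG00000029646 (Cdx2), ENSMUSG00000031326 (Cdx4), ENSMUSG00000020160 (Meis1), ENSMUSG00000027210 (Meis2), ENSMUSG00000041420 (Meis3), ENSMUSG00000006705 (Pknox1), ENSMUSG00000034673 (Pbx2) and ENSMUSG00000038718 (Pbx3). F9 cells are a mouse embryonal carcinoma line that turns into endoderm-like cells when given retinoic acid (RA), the vitamin A derivative that binds the nuclear receptors RAR and RXR. mRNA was sequenced from cells given all-trans RA at 1e-07 M for 6, 12, 24 or 48 h (2 libraries per time), from cells given 0.001% DMSO, the solvent of RA, for 24 or 48 h (1 library per time), and from cells collected at 0 h (4 libraries). All cells came from the 1 line and were seeded on gelatine 16 h before treatment. No statement says whether replicates came from separate cultures, so every p-value reflects the variation among these libraries alone, and that variation may be technical. The RAR, RXR and total chromatin samples of the series were not used here.

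Cdx proteins are caudal-type transcription factors that pattern the posterior of the embryo and switch on Hox genes in the trunk and tail. Meis, Pknox (also called Prep) and Pbx proteins belong to the TALE class of homeodomain proteins. They bind DNA in pairs and trios with Hox proteins, and in the hindbrain they act with early Hox proteins downstream of RA. Cdx1 and Meis2 are long known as RA-induced genes in mouse cells, and Meis or Prep proteins help to keep Pbx proteins in the nucleus.

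RefSeq start regions of 6 of the 9 genes were used, those of Cdx2, Cdx4, Meis1, Meis2, Meis3 and Pbx2. Cdx1, Pbx3 and Pknox1 were left out, so nothing is said here of their start regions. The regions used cover 250 bases before to 50 bases after the gene start on build GRCm38.p6. They were searched on both strands for the nuclear receptor half-sites AGGTCA and AGTTCA, direct repeats of these half-sites spaced by 0 to 5 bases, the Meis and Prep motif TGACAG, the Pbx motif TGATTGAT, the Cdx motif TTTATG and the TATA box TATAAA. A direct repeat overlaps its own half-sites by definition. The 3 start regions below belong to those of the 6 genes whose mRNA was called higher at 48 h. Capitals mark the matches. In Meis3 the match is the half-site AGTTCA, read on the opposite strand and starting at position -22 from the gene start. In Meis2 the match is the TATA box, starting at position -152. Pbx2 has none of the motifs, as have the windows of Cdx2, Cdx4 and Meis1.
Meis2, chr2:116064570-116064869, minus strand: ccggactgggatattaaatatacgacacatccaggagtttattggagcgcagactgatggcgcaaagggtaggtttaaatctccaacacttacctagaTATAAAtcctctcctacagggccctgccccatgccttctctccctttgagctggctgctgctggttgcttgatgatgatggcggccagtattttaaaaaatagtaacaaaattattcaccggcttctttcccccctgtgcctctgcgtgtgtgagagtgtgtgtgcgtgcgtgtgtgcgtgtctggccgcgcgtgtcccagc
Meis3, chr7:16175145-16175444, plus strand: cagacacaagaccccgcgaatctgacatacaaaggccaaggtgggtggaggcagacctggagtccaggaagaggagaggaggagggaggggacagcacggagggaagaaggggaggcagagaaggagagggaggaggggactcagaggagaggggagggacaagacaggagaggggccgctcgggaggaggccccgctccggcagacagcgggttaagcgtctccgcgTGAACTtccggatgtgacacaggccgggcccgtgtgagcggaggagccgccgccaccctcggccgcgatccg
Pbx2, chr17:34592009-34592308, plus strand: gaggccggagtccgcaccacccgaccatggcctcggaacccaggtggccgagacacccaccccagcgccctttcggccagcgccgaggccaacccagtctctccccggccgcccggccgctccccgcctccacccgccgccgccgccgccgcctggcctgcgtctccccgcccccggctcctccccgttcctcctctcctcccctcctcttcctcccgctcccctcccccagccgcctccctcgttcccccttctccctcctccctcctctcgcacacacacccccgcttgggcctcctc
No direct repeat was found in the 6 windows. Among all 32851 RefSeq start regions of this length, AGGTCA occurred in 16.3%, AGTTCA in 14%, TGACAG in 19.2%, TGATTGAT in 0.746%, TTTATG in 11.9% and TATAAA in 13.6%. The Pbx2 window was made of 76.0% G and C with 29 CpG dinucleotides, the Meis3 window of 66.7% with 21, and the Meis2 window of 51.0% with 13. The median over all start regions was 52.7% with 7 CpG dinucleotides. A match is a description of these letters and was not tested as a binding site.

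Each library held 7078941 to 10948932 counts on genes. Levels are given as CPM, counts scaled to a common library total. The limit that a count of 0 allows, 3 counts, came to between 0.274 and 0.424 CPM. Such limits cover counting error only. The libraries fell into 2 sets by the share of reads that lay in no annotated gene, 57.3 to 59.43% in set 1 and 52.51 to 53.77% in set 2. This share was taken of those reads and the reads counted on genes together, without the other entries. Set 1 holds replicate 1 of 0 h and of each RA time together with both DMSO libraries, and set 2 holds the others. With set as a term in the model, 42.1% of all tested genes differed between the sets, Meis1 and Cdx1 among them, by -1.48 ± 0.35 and -0.60 ± 0.20 (log2 of set 2 over set 1 ± SE, edgeR adjusted p = 0.00784 and 0.0241). DMSO libraries exist in set 1 alone. RefSeq on build GRCm38 places Gm52351 over Cdx1, Gm16141 over Meis1 and G630016G05Rik over Meis2. The counts used Ensembl genes on build mm9, and whether these overlaps exist there was not checked. No source used here states whether counting used strand, so reads of any such overlap cannot be told apart. Values below are given per library, set 1 first within each RA time and at 0 h.

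Against 0 h, 2 of the 9 genes were called higher at 6 h of RA, 3 at 12 h, 4 at 24 h and 5 at 48 h. None was called lower at any of these times (edgeR's quasi-likelihood test, adjusted p under 0.05 over all tested genes). No DMSO library exists at 6 or 12 h, so RA and time in culture with solvent cannot be told apart there. Over all tested genes, 1.66% were called in either direction at 6 h, 2.75% at 12 h, 12.3% at 24 h and 29.5% at 48 h. The share called higher was 1.47%, 2.15%, 8.08% and 17.5% at the same times, and the share called lower was 0.192%, 0.594%, 4.26% and 12%. Cdx1 and Pbx2 were called at all 4 times, Meis2 from 12 h on, Pbx3 from 24 h on and Meis3 at 48 h. The median log2 change of the 9 genes was 0.65, 0.77, 1.27 and 1.19 at 6, 12, 24 and 48 h, against -0.01, 0, -0.00 and 0.01 for all tested genes.

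**Figure D1:**
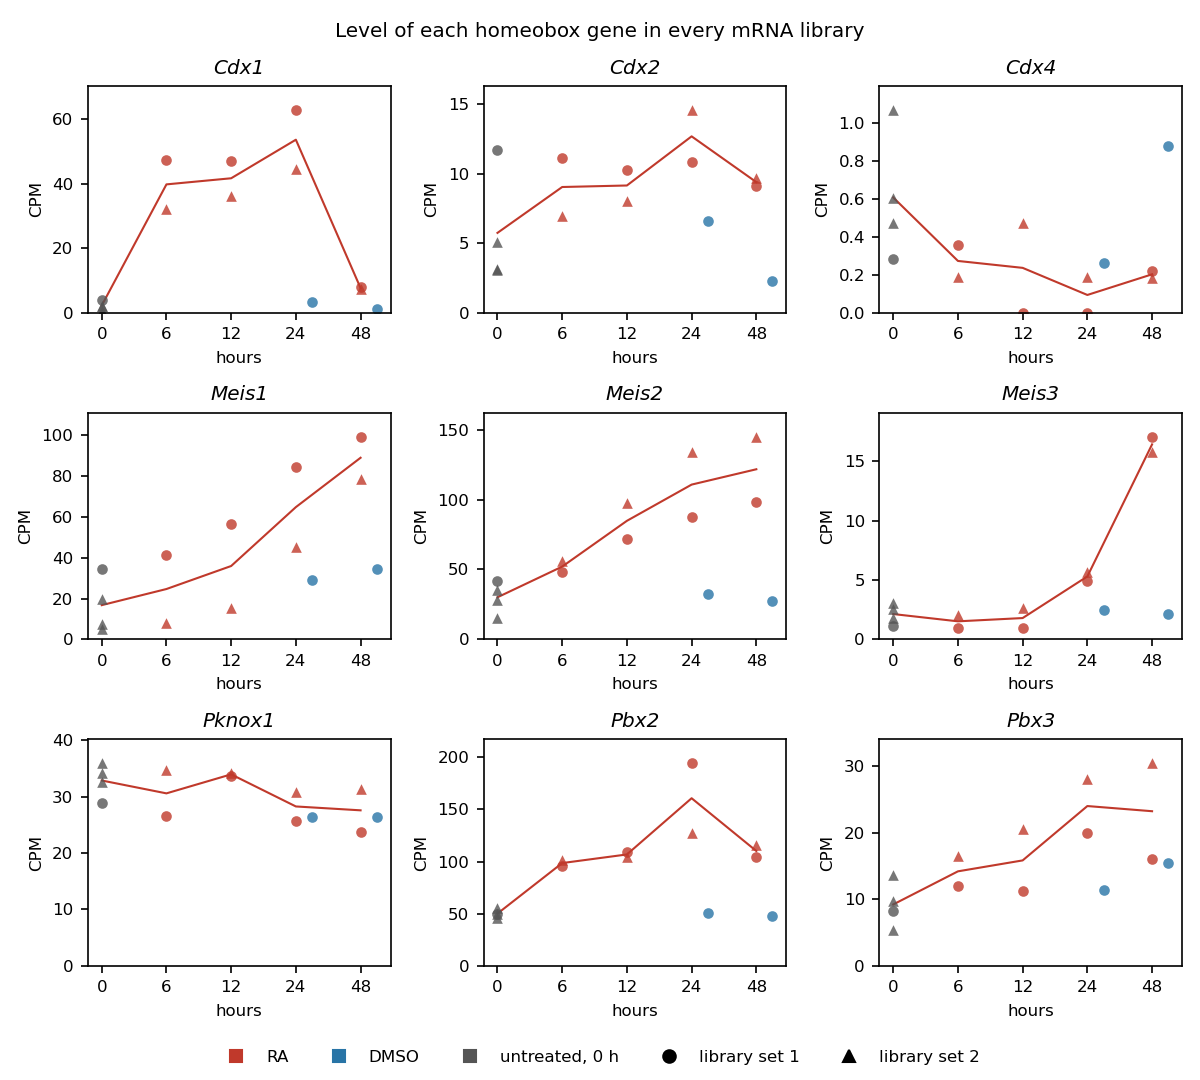
Level of each gene (CPM, vertical axes from 0, scales differ) in each of the 14 mRNA libraries by hours of culture, drawn at even spacing. Each point is 1 library, the line joins the means of 0 h and the RA times, and DMSO libraries sit just right of RA at 24 and 48 h. Cdx1 is between 32.3 and 62.8 CPM at 6 to 24 h of RA and at 7.31 and 7.98 CPM at 48 h, while Meis3 is highest at 48 h.

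Cdx1 had the largest called change of the 9 genes at 6, 12 and 24 h. In bulk samples like these, fewer cells of a type and less RNA per cell cannot be told apart. Its level was 47.4 and 32.3 CPM at 6 h of RA, 47.2 and 36.3 CPM at 12 h, 62.8 and 44.6 CPM at 24 h and 7.98 and 7.31 CPM at 48 h. The DMSO libraries had 3.41 CPM at 24 h and 1.00 CPM at 48 h, and the 0 h libraries 3.96, 0.664, 2.13 and 2.14 CPM. Every RA library lay above every DMSO and 0 h library, and the 3 early RA times overlapped each other and lay above 48 h. Against 0 h the log2 change was 4.22 ± 0.48 at 6 h (edgeR adjusted p = 0.00141), 4.24 ± 0.48 at 12 h (0.000802), 4.51 ± 0.48 at 24 h (0.000323) and 1.65 ± 0.49 at 48 h (0.0268). Leaving out any 1 library kept the 6, 12 and 24 h calls in 14 of 14 fits. The 48 h call was lost without either 48 h library or without 0 h replicate 3 or 4 (adjusted p 0.0606 to 0.122), and when only the 2 groups entered the fit (0.0624). Within the sets, the difference of log2(CPM + 1) at 24 h was 3.69 in set 1 and 4.17 in set 2, and at 48 h it was 0.86 and 1.71.

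Cdx1 at 48 h of RA was lower than at 24 h by a log2 change of -2.86 ± 0.57. The difference missed the threshold in the model without blocking (adjusted p = 0.0587). With the replicate number as a block the change was -2.80 and passed (adjusted p = 0.00015), as it did with DESeq2 (2.71e-05) and without a filter on low counts (0.035). No other gene of the 9 had an estimate this far from 0 between 2 successive RA times. Within the sets it was -2.83 and -2.46 on the log2(CPM + 1) scale.

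Cdx2, which is best known from the trophectoderm of the blastocyst and from the intestine, did not pass the test at any time. It had 11.1 and 6.97 CPM at 6 h of RA, 10.2 and 8.04 CPM at 12 h, 10.8 and 14.5 CPM at 24 h and 9.09 and 9.68 CPM at 48 h. DMSO gave 6.56 CPM at 24 h and 2.26 CPM at 48 h, and the 0 h libraries 11.7, 3.04, 3.14 and 5.05 CPM. The single 0 h library of set 1 lay within the RA values and the 0 h libraries of set 2 lay below all of them. The log2 change against 0 h was 0.69 ± 0.52 at 6 h, 0.66 ± 0.52 at 12 h, 1.02 ± 0.51 at 24 h (edgeR adjusted p = 0.228) and 0.55 ± 0.52 at 48 h (0.463). Within set 1 the difference of log2(CPM + 1) was -0.11 at 24 h and -0.34 at 48 h, and within set 2 it was 1.74 and 1.20. The pooled estimate thus joins sets with opposite signs. A fit of set 2 alone called Cdx2 at 24 h (1.83, adjusted p = 0.0175) and at 48 h (1.25, 0.0375). Leaving out the 0 h library of set 1 did so too (adjusted p = 0.0144 and 0.0271), and DESeq2 with set as a term called it at 24 h (0.0489).

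Cdx4, an X-linked gene of the posterior embryo and of early blood formation, was at the edge of detection. Its counts were 3 and 2 at 6 h of RA, 0 and 5 at 12 h, 0 and 2 at 24 h, 2 and 2 at 48 h, 2 and 7 in the DMSO libraries of 24 and 48 h, and 2, 5, 6 and 11 at 0 h. The RA libraries thus held 16 counts over 8 libraries, against 9 over 2 DMSO libraries and 24 over 4 libraries at 0 h. The counts of 0 allow up to 0.349 CPM at 12 h and 0.327 CPM at 24 h in those libraries. At 24 h of RA 2 counts stood against 24 at 0 h, a ratio of pooled CPM of 0.158 (95% interval 0.0181 to 0.638, counting error only). At 48 h of RA 4 counts gave a ratio of 0.315 (0.0796 to 0.918). The edgeR test, which includes the spread between libraries, did not call Cdx4 at 24 h (adjusted p = 0.187) or at 48 h (0.269).

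Meis1, a Hox partner that is also known from leukaemia, was higher in the set 1 library at 0 h and at each RA time. Its level was 41.4 and 7.91 CPM at 6 h of RA, 56.5 and 15.4 CPM at 12 h, 84.4 and 45.2 CPM at 24 h and 99.3 and 78.8 CPM at 48 h. DMSO gave 28.9 CPM at 24 h and 34.5 CPM at 48 h, and the 0 h libraries 34.5, 5.12, 7.49 and 19.9 CPM. In each RA time the set 1 library was the higher, and from 24 h on both RA libraries lay above all DMSO and 0 h libraries. Against 0 h the log2 change was 0.60 ± 0.84 at 6 h, 1.09 ± 0.83 at 12 h, 1.85 ± 0.81 at 24 h (edgeR adjusted p = 0.173) and 2.25 ± 0.81 at 48 h (0.0605), so it was not called. With the replicate number as a block it was called at 24 h (1.92, adjusted p = 0.0284) and at 48 h (2.51, 0.00522). With set as a term it was called at both times too (1.61, 0.0335 and 2.17, 0.0042), and a fit of only the 2 groups called it at 48 h (0.0441). Within set 1 the difference of log2(CPM + 1) was 0.26 at 6 h, 0.70 at 12 h, 1.27 at 24 h and 1.50 at 48 h. Within set 2 it was -0.21, 0.68, 2.17 and 2.96.

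Meis2 rose from 12 h on. The RA libraries held 48.2 and 55.8 CPM at 6 h, 72.0 and 97.6 CPM at 12 h, 87.4 and 134 CPM at 24 h and 98.5 and 145 CPM at 48 h. DMSO gave 32.5 CPM at 24 h and 27.1 CPM at 48 h, and the 0 h libraries 41.5, 27.9, 15.5 and 35.3 CPM. All 8 RA libraries lay above all 6 others, the 6 and 12 h libraries did not overlap, and 12, 24 and 48 h overlapped in turn. Against 0 h the log2 change was 0.82 ± 0.33 at 6 h (edgeR adjusted p = 0.421), 1.48 ± 0.33 at 12 h (0.0398), 1.76 ± 0.33 at 24 h (0.00683) and 1.86 ± 0.33 at 48 h (0.00211). The 24 and 48 h calls held without any 1 library in 14 of 14 fits. The 12 h call was lost without any 1 of the 6 and 12 h libraries or without 0 h replicate 2 or 4 (adjusted p 0.0542 to 0.265), and also when only the 2 groups entered the fit (0.0797). Within the sets the 48 h difference of log2(CPM + 1) was 1.23 in set 1 and 2.50 in set 2.

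Meis3, also a Hox and Pbx partner, was called at 48 h alone. It had 0.955 and 2.07 CPM at 6 h of RA, 0.932 and 2.65 CPM at 12 h, 4.91 and 5.69 CPM at 24 h and 17.1 and 15.8 CPM at 48 h. DMSO gave 2.49 CPM at 24 h and 2.13 CPM at 48 h, and the 0 h libraries 1.13, 3.04, 1.82 and 2.52 CPM. The 6 and 12 h libraries overlapped the 0 h range, 24 h lay above it, and 48 h lay above 24 h. Its log2 change against 0 h was -0.46 ± 0.49 at 6 h, -0.26 ± 0.49 at 12 h, 1.20 ± 0.45 at 24 h (edgeR adjusted p = 0.112) and 2.79 ± 0.44 at 48 h (0.00121). The 48 h call was kept in 14 of 14 fits that left out 1 library, and its within-set differences of log2(CPM + 1) were 3.08 in set 1 and 2.30 in set 2. The 24 h value was called with the replicate block (1.25, adjusted p = 0.045) and with set as a term (1.36, 0.0122). Its start region, printed above, holds the single AGTTCA match among the 6 windows.

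Pknox1, which encodes the Prep1 partner of Pbx proteins, was flat by comparison. It had 26.5 and 34.7 CPM at 6 h of RA, 33.7 and 34.2 CPM at 12 h, 25.6 and 30.9 CPM at 24 h and 23.7 and 31.4 CPM at 48 h. DMSO gave 26.4 CPM at 24 h and 26.5 CPM at 48 h, and the 0 h libraries 28.8, 35.9, 32.6 and 34.2 CPM. RA and 0 h overlapped at every time. The log2 change against 0 h was -0.08 ± 0.17 at 6 h, 0.03 ± 0.17 at 12 h, -0.33 ± 0.18 at 24 h (edgeR adjusted p = 0.261) and -0.40 ± 0.18 at 48 h (0.113).

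Pbx2, which encodes a DNA-binding partner of Hox proteins, rose at the earliest time and stayed higher. Its level was 95.6 and 101.5 CPM at 6 h of RA, 109.6 and 104 CPM at 12 h, 194 and 127 CPM at 24 h and 104 and 116 CPM at 48 h. DMSO gave 50.8 CPM at 24 h and 48.2 CPM at 48 h, and the 0 h libraries 49.3, 55.0, 50.0 and 46.2 CPM. All 8 RA libraries lay above all 6 others, and 24 h lay above the other RA times. Against 0 h the log2 change was 1.00 ± 0.18 at 6 h (edgeR adjusted p = 0.0179), 1.08 ± 0.18 at 12 h (0.00853), 1.58 ± 0.18 at 24 h (0.000406) and 0.98 ± 0.18 at 48 h (0.00263). The 24 and 48 h calls were kept in 14 of 14 fits that left out 1 library. The 6 h call was lost without either 6 h library or without 0 h replicate 2, 3 or 4 (adjusted p 0.0553 to 0.17), and the 12 h call without either 12 h library (0.0512 and 0.111). The 24 h peak rests on a 194 CPM library of set 1 and a 127 CPM library of set 2, and the within-set differences of log2(CPM + 1) were 1.96 and 1.32 at 24 h and 1.06 and 1.19 at 48 h.

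Pbx3, a DNA-binding partner of Hox proteins like Pbx2, was called from 24 h on. It had 11.9 and 16.5 CPM at 6 h of RA, 11.2 and 20.5 CPM at 12 h, 19.97 and 28.1 CPM at 24 h and 16.1 and 30.4 CPM at 48 h. DMSO gave 11.4 CPM at 24 h and 15.4 CPM at 48 h, and the 0 h libraries 8.19, 13.7, 5.36 and 9.71 CPM. In each RA time the set 2 library was the higher, and from 24 h on the RA libraries lay above all 0 h libraries. The log2 change against 0 h was 0.65 ± 0.38 at 6 h, 0.77 ± 0.37 at 12 h, 1.27 ± 0.37 at 24 h (edgeR adjusted p = 0.0489) and 1.19 ± 0.37 at 48 h (0.0341). Both calls lie near the threshold. The 24 h call was lost in 10 of 14 fits without 1 library (adjusted p 0.0502 to 0.15) and was kept without 48 h replicate 2, 0 h replicate 2 or either DMSO library, and it was lost when only the 2 groups entered the fit (0.0655). The 48 h call was lost without 48 h replicate 2 or without 0 h replicate 1, 3 or 4 (0.0611 to 0.289). Within the sets the 48 h difference of log2(CPM + 1) was 0.89 in set 1 and 1.65 in set 2.

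**Figure D2:**
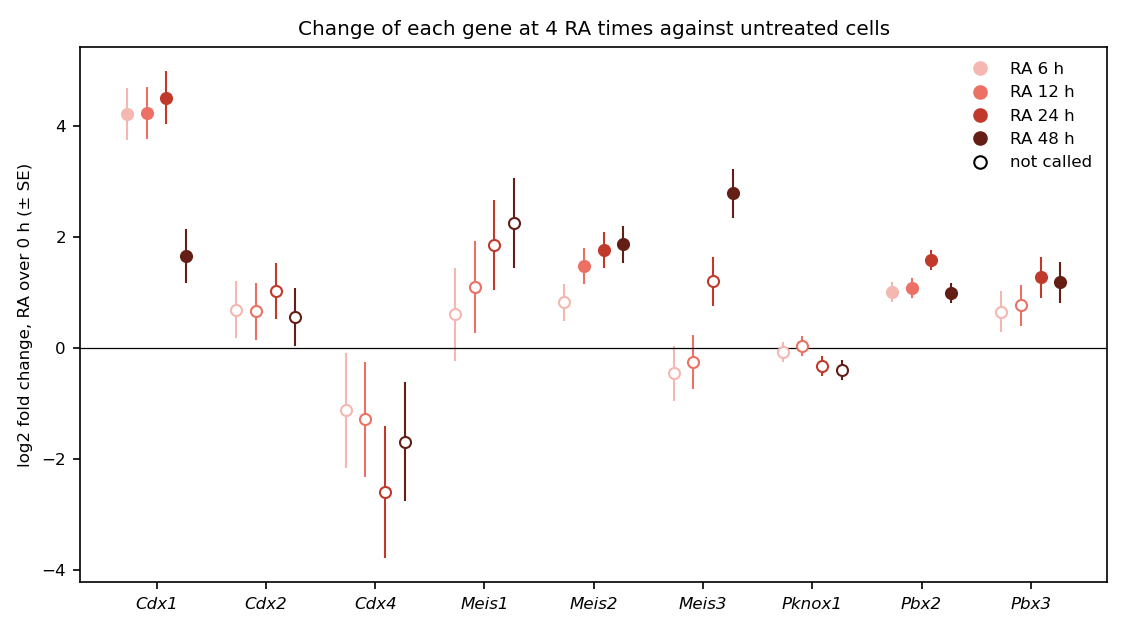
Log2 fold change of each gene at 6, 12, 24 and 48 h of RA over 0 h (edgeR), with bars of 1 SE. Filled points passed an adjusted p of 0.05. Cdx1 stays above 4 until 24 h and stands at 1.65 at 48 h, Meis2 climbs from 0.82 to 1.86 over the 4 times, and Meis3 is filled at 48 h alone.

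**Figure D3:**
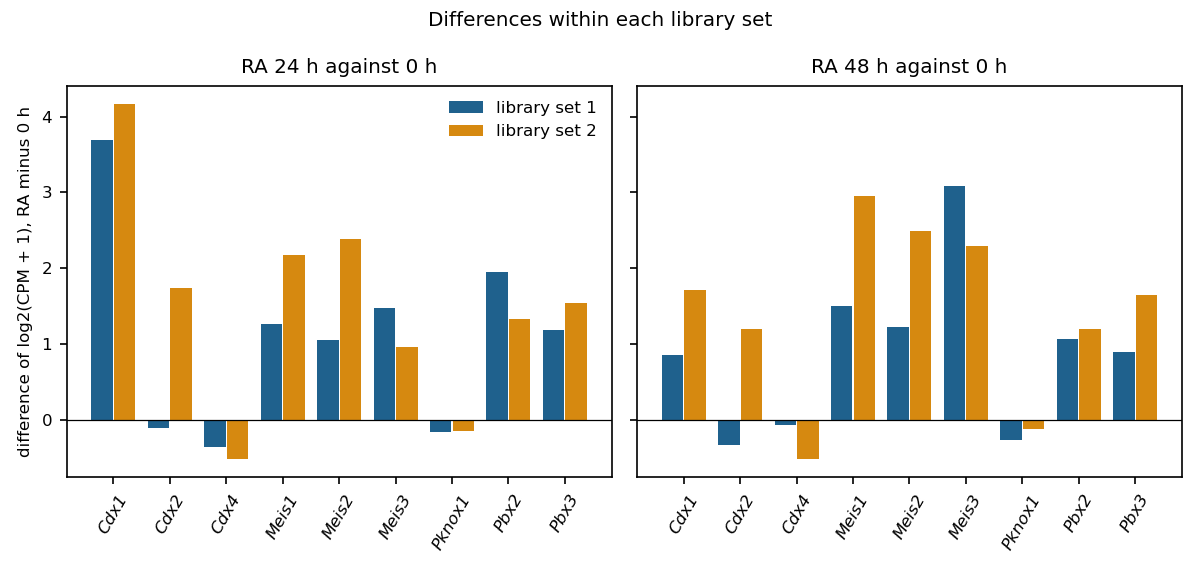
Difference of log2(CPM + 1), RA minus 0 h, taken within library set 1 (1 RA and 1 0 h library) and within set 2 (1 RA and 3 0 h libraries) at 24 and 48 h. The bars of both sets share a sign for 8 genes, and for Cdx2 they are -0.11 and 1.74 at 24 h and -0.34 and 1.20 at 48 h.

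Between successive RA times none of the 9 genes was called in the model without blocking. Of all tested genes, 0% were called for 12 h against 6 h, 0.0124% for 24 h against 12 h and 0.706% for 48 h against 24 h, of which 0.217% were lower. At an unadjusted p under 0.05 the number of members was 0, 2 and 3 for these steps, against 287, 1710 and 2233 of all tested genes (1.78%, 10.6% and 13.8%). DESeq2 called 0, 0 and 1 of the 9, and 7, 345 and 669 of all genes. From 12 to 24 h the 2 were Meis3 (1.46 ± 0.55, edgeR adjusted p = 0.37) and Pbx2 (0.50 ± 0.21, 0.432). From 24 to 48 h they were Cdx1, given above, Meis3 (1.59 ± 0.53, 0.207) and Pbx2 (-0.60 ± 0.21, 0.239). With the replicate number as a block, Meis3 was called at both steps (1.50, adjusted p = 0.0412, and 1.64, 0.00933), and Pbx2 was called lower at 48 h than at 24 h (-0.55, 0.0468). The drop of Pbx2 after 24 h was -0.89 within set 1 and -0.13 within set 2 on the log2(CPM + 1) scale. By group means the level was highest at 24 h for Cdx1, Cdx2, Pbx2 and Pbx3 and at 48 h for the 3 Meis genes.

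Against DMSO at the same time, RA raised Cdx1 and Pbx2 at 24 h and Meis2, Meis3 and Pbx2 at 48 h. Of all tested genes 1.89% were called at 24 h and 7.96% at 48 h, 1.29% and 4.8% as higher and 0.594% and 3.16% as lower. There is 1 DMSO library per time, which was assumed to vary like the other groups. At 24 h the log2 change was 3.81 ± 0.82 for Cdx1 (edgeR adjusted p = 0.0467) and 1.51 ± 0.28 for Pbx2 (0.0269), while Meis2 had 1.59 ± 0.52 (0.164). At 48 h it was 2.00 ± 0.53 for Meis2 (0.0462), 2.77 ± 0.75 for Meis3 (0.0481), 1.03 ± 0.27 for Pbx2 (0.0468) and 2.75 ± 0.86 for Cdx1 (0.0783). Cdx2 had 0.78 ± 0.77 at 24 h and 1.88 ± 0.84 at 48 h (0.196), Meis1 1.02 ± 1.25 and 1.20 ± 1.25, Pbx3 0.90 ± 0.56 and 0.42 ± 0.55, and Pknox1 -0.07 ± 0.25 and -0.11 ± 0.25. For Cdx4 there were 2 counts in RA and 2 in DMSO at 24 h, too few for a fold, and at 48 h there were 2 in each RA library and 7 in DMSO (-2.22 ± 1.36, edgeR adjusted p = 0.345). With set as a term, Cdx1 (3.06, adjusted p = 0.00317) and Cdx2 (2.22, 0.0315) were called at 48 h as well.

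These calls lie close to the threshold. Of 13 fits that left out 1 library, the calls held in 4 for Cdx1 at 24 h, in 10 for Pbx2 at 24 h, and at 48 h in 5 for Meis2, in 4 for Meis3 and in 3 for Pbx2. The adjusted p reached 0.122, 0.0561, 0.133, 0.121 and 0.131 in that order. Libraries of every group but DMSO ended at least 1 of these calls. Leaving out either 6 h library, which belongs to neither group compared, ended the 48 h calls of Meis2, Meis3 and Pbx2. When only RA and DMSO of 1 time entered the fit, Pbx2 was not called at 24 h (0.267) or at 48 h (0.101), and without a filter on low counts it was not called at 48 h (0.058). DESeq2 called Meis2 at 24 h (0.035) and Cdx1 at 48 h (0.0102) in addition. The DMSO values of Pbx2 themselves, 50.8 and 48.2 CPM, lay inside the 0 h range of 46.2 to 55.0 CPM.

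**Figure D4:**
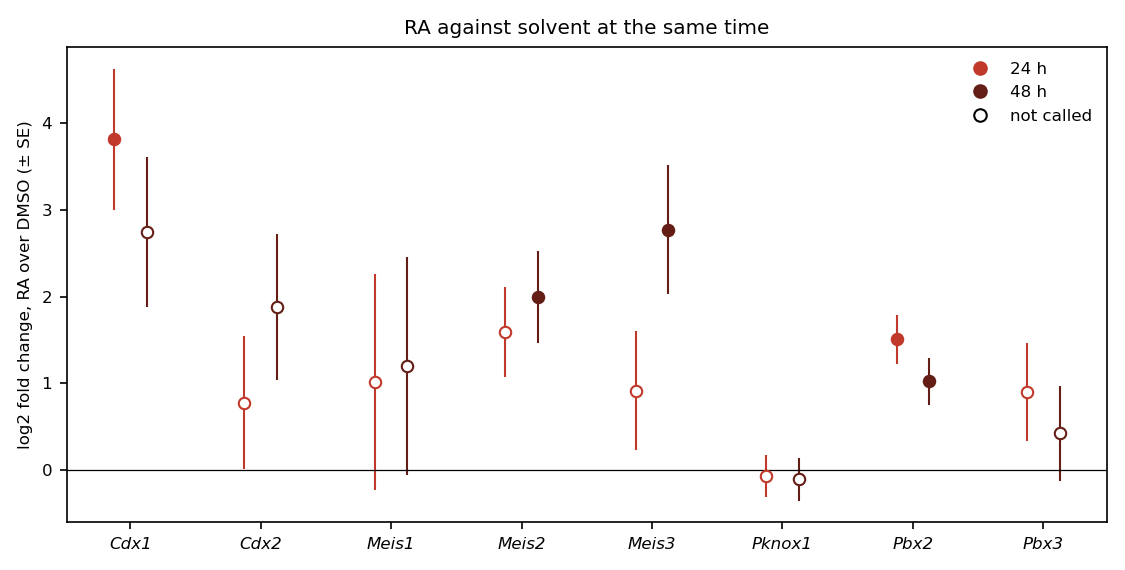
Log2 fold change of RA over DMSO at 24 and 48 h (edgeR) with bars of 1 SE for 8 genes, Cdx4 being left out because its counts were 7 or fewer. Filled points passed an adjusted p of 0.05: Cdx1 and Pbx2 at 24 h, and Meis2, Meis3 and Pbx2 at 48 h.

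DMSO itself, with its 2 libraries pooled, was not told from 0 h for any of the 9 genes. edgeR called 0% of all tested genes in this comparison, 0 of the 9 had an unadjusted p under 0.05, against 7.89% of all tested genes (1274), and DESeq2 called 0 of the 9 and 6 of all genes. With 9 genes, a count of 0 is near that share and shows nothing particular to them. The log2 differences were -0.20 ± 0.57 for Cdx1, -0.54 ± 0.56 for Cdx2, -0.31 ± 0.99 for Cdx4, 0.94 ± 0.83 for Meis1, 0.02 ± 0.34 for Meis2 and 0.15 ± 0.48 for Meis3. They were -0.28 ± 0.18 for Pknox1, 0.02 ± 0.19 for Pbx2 and 0.57 ± 0.38 for Pbx3. Pknox1 was the 1 gene with both DMSO libraries, at 26.4 and 26.5 CPM, outside the 0 h range, from 28.8 to 35.9 CPM. Other genes had 1 DMSO library outside it. At 48 h Pbx3 lay above (15.4 CPM, against at most 13.7 CPM at 0 h) and Cdx2 below (2.26 CPM, against at least 3.04 CPM). By small margins, Meis1 lay above at 48 h (34.49 against 34.468 CPM) and Cdx4 below at 24 h (0.262 against 0.283 CPM). The change of RA over DMSO at 48 h was set against that at 24 h, and edgeR called 0 genes. For Meis3 the difference of the 2 changes was 1.85 ± 0.95 (unadjusted p = 0.0792, adjusted p = 1, edgeR).

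The rest of the TALE class, as a list of 12 genes with 11 tested, moved in part. At 6, 12, 24 and 48 h of RA, 0, 2, 4 and 3 of the 11 were called higher than at 0 h and 0, 0, 1 and 0 lower, with median log2 changes of 0.03, 0.17, 0.80 and 0.59. Of all tested genes, 1.47%, 2.15%, 8.08% and 17.5% were called higher at these times. Pknox2 and Irx3 were among the TALE genes called at 48 h. Pknox2, which encodes Prep2, had 17.9 to 20.5 CPM at 48 h, against 0.989 to 1.75 CPM at 0 h (3.75 ± 0.31, edgeR adjusted p = 3.75e-05). Irx3, an Iroquois gene of neural patterning, had 21.5 to 26.3 CPM at 48 h, against 1.55 to 5.79 CPM at 0 h (2.68 ± 0.46, 0.00198). Tgif1, a TALE repressor, was called lower at 24 h alone (-0.76 ± 0.18, 0.0222).

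The Hox genes, which these factors regulate or bind beside, were called cluster by cluster. Of 10 tested Hox A genes 6, 6, 8 and 9 were called higher at 6, 12, 24 and 48 h, and of 10 Hox B genes 5, 7, 9 and 10. Of 7 Hox C genes 0, 0, 2 and 7 were, and of 7 Hox D genes 0, 0, 0 and 1, with 1 lower at 48 h. Median log2 changes at 48 h were 4.25 for Hox A, 6.38 for Hox B, 7.34 for Hox C and 1.82 for Hox D. Genes with no count at 0 h set at their bound, against 3 counts over the 4 libraries, made these 6.15 for Hox B and 5.92 for Hox C. Hoxb2 had 44.5 to 56.1 CPM at 48 h and 3 counts in all at 0 h, a ratio of 641 (95% interval 219 to 3110), and Hoxc8, with 0 counts at 0 h, was at least 115-fold higher over both 48 h libraries. These differed, with 2.66 CPM in replicate 1 and 14.5 CPM in replicate 2, and each alone gave a bound of at least 33.5-fold and 183-fold higher. In Hox D, Hoxd9 was called higher (2.93 ± 0.96, edgeR adjusted p = 0.0411) and Hoxd11 lower (-3.74 ± 1.07, 0.0239). Hoxd11 had 3 counts at 48 h against 74 at 0 h, a ratio of pooled CPM of 0.0767 (95% interval 0.0155 to 0.233).

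Genes of the posterior growth zone, where Cdx proteins act in the embryo, were called in both directions. Of 13 tested, 1, 1, 2 and 3 were called higher and 1, 1, 3 and 2 lower at 6, 12, 24 and 48 h, with median log2 changes of -0.34, -0.16, 0.15 and -0.16. Of all tested genes, 1.47%, 2.15%, 8.08% and 17.5% were called higher and 0.192%, 0.594%, 4.26% and 12% lower at these times. With 13 genes, the counts at 48 h are near those shares. At 48 h Cyp26a1, an RA-degrading enzyme and RA target, had 196 to 259 CPM, against 1.55 to 7.18 CPM at 0 h. Gdf11, a signal of trunk-to-tail patterning, had 9.64 to 10.2 CPM, against 0.776 to 1.70 CPM. Lower were Fgf4, at 20.9 to 24.4 CPM against 142 to 204 CPM at 0 h, and Evx1, at 0.0913 to 0.554 CPM against 3.30 to 18.3 CPM. The adjusted p of these 4 lay between 6.24e-05 and 0.00629 (edgeR). T, the brachyury gene, was not called (-0.62 ± 1.22).

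Genes of the hindbrain segments, where Meis and Pbx act with Hox proteins, were called in 1 direction. Of 8 tested, 2, 3, 6 and 7 were called higher at 6, 12, 24 and 48 h and 0 lower, with median log2 changes of 0.73, 0.66, 1.73 and 3.24. Fgf3, a growth factor of the hindbrain, had 20.7 to 29.0 CPM at 48 h, against 0.565 to 2.18 CPM at 0 h (3.92 ± 0.49, edgeR adjusted p = 0.000337). The RA-degrading enzyme Cyp26b1 had 15.6 to 28.4 CPM at 48 h and 0 counts at 0 h, at least 285-fold higher over both 48 h libraries. Replicate 1 alone gave a bound of at least 197-fold and replicate 2 of at least 358-fold. Cyp26c1 had 107 counts at 48 h, against 4 at 0 h, a ratio of pooled CPM of 50.6 (95% interval 19.2 to 189, counting error only).

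**Figure D5:**
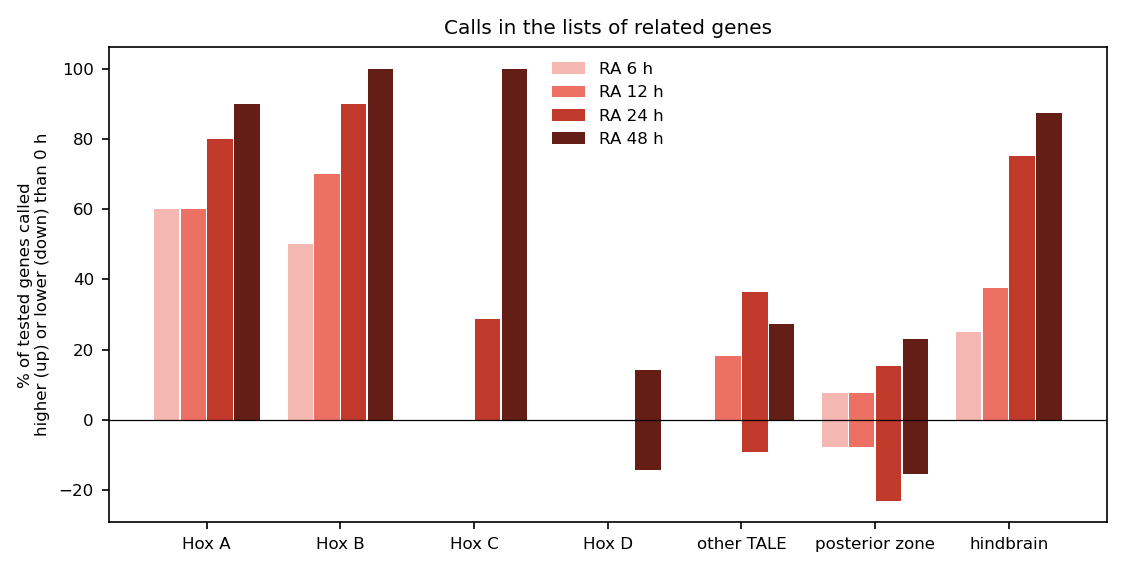
Percent of the tested genes of each list called higher (above 0) or lower (below 0) than 0 h at 6, 12, 24 and 48 h of RA, for Hox A (10 tested), Hox B (10), Hox C (7), Hox D (7), other TALE (11), posterior growth zone (13) and hindbrain (8). Hox B and hindbrain bars are higher at each later time, the Hox A bars are equal at 6 and 12 h and higher at 24 and 48 h, Hox C bars start at 24 h, and the posterior list has bars both ways.

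Markers of F9 stem cells fell and markers of endoderm rose. The 7 stem cell genes, Pou5f1 and Sox2 among them, summed to 1213 to 2093 CPM at 48 h of RA, against 5758 CPM in DMSO at 48 h and 4307 to 5072 CPM at 0 h, and 6 of 7 were called lower at 48 h than at 0 h. The 8 markers of primitive and parietal endoderm summed to 4114 to 5396 CPM at 48 h, against 253.6 CPM in DMSO at 48 h and 138 to 285.8 CPM at 0 h, with 8 of 8 called higher. Trophectoderm markers, relevant to Cdx2, summed to 111.8 to 122 CPM at 48 h, against 48.66 CPM in DMSO at 48 h and 37.56 to 94.51 CPM at 0 h. Of 7 tested, 2 were called higher than at 0 h, Gata3 (2.69 ± 0.46, edgeR adjusted p = 0.00191) and Eomes (1.11 ± 0.33, 0.0289). Over all tested genes 17.5% were called higher at 48 h. The median log2 change of the trophectoderm list was 0.01. Not called were Krt7 (2.60 ± 0.98), Tfap2c (0.01 ± 0.86), Tead4 (-0.56 ± 0.49), Hand1 (-0.69 ± 0.94) and Gcm1 (-1.99 ± 1.07). Eomes alone had 64.2 to 67.6 CPM at 48 h. Elf5 was not tested and never passed 0.333 CPM. Intestinal markers summed to 16.35 to 26.82 CPM at 48 h, against 4.766 CPM in DMSO at 48 h and 1.044 to 1.553 CPM at 0 h. Of the 8 listed genes 2 were tested, Hnf4a and Isx, and each was called higher than at 0 h. Isx had 1.19 to 1.77 CPM at 48 h. Vil1, Cdh17, Muc2, Lct and Sis were not tested and never passed 1.05 CPM. Hnf4a, which endoderm also expresses, had 14.5 to 24.3 CPM at 48 h, against 0.388 to 0.848 CPM at 0 h. Fabp2 was at 0 in all libraries. The 7 mesoderm markers summed to 96.63 to 127.6 CPM at 48 h, against 99.35 to 373.5 CPM at 0 h, and 5 of 7 were called higher. Those called higher included Meox1 (log2 change 7.29 ± 0.85), Tbx1 (6.56 ± 1.04), Hand2 (4.99 ± 0.79) and Foxc2 (4.55 ± 0.93). Tcf15 was not called (-1.63 ± 0.86, edgeR adjusted p = 0.186). It made up most of the sum at 0 h, at 93.94 to 367.6 CPM. In the 48 h library where Tcf15 was lower, it had 33.25 CPM and was not most of the sum. Fibroblast markers summed to 4.654 to 7.581 CPM at 48 h, against 15.05 CPM in DMSO at 48 h and 11.67 to 28.13 CPM at 0 h. Of these, 2 of 3 tested were called higher than at 0 h and 1 lower. The lower one was Thy1, at 1.108 to 1.37 CPM, against 11.29 to 27.42 CPM at 0 h. The 5 matched neural markers summed to 99.18 to 108.4 CPM at 48 h, against 41.51 CPM in DMSO at 48 h and 68.23 to 88.43 CPM at 0 h. Of 4 tested, 1 was called higher than at 0 h. For RA over DMSO at 48 h, 5 of 7 stem cell genes were called lower and 7 of 8 endoderm markers higher. Also called higher were 1 of 7 trophectoderm, 0 of 2 intestinal, 2 of 7 mesoderm and 0 of 4 neural markers. Of 3 fibroblast markers 0 were called higher and 1 lower. The part of all these markers in the levels of the 9 genes was not tested.

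By the correlation of log2 CPM over the 14 libraries, the genes most like each of the 9 were found among 13727 genes averaging 1 CPM or more (13728 for Cdx4). They were Ccdc88b (r = 0.978), Map7 and Tmem229b for Cdx1, Rcan2 (0.969), Golm1 and Clcn5 for Meis2, Serinc5 (0.984), Afap1l2 and Gpr173 for Meis3, and Cyp26b1 (0.977), Msi1 and Mgarp for Pbx2. For Meis1 they were Bcl9 (0.942), Mettl7a1 and Tgfbi, for Pbx3 Cdkn1b (0.924), Lrig2 and Tmem243, for Pknox1 Orc2 (0.938), Tti2 and Gmeb2, and for Cdx2 Thnsl2 (0.867), Hic2 and 1700020L24Rik. For Cdx4, with few counts, they were Dnajc6 (0.895) and Cdk6. The libraries share depth and set, so these are descriptions. None of the 3 best matches of any of the 9 genes was another of the 9.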

How the data were processed

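Raw counts of reads per Ensembl gene were deposited by the authors for each mRNA library. Per the labels' protocols, RNA was extracted with TRIzol and sequenced single-end after TruSeq V2 preparation. TopHat2 2.0.7, HTSeq and build mm9 are named in the submitters' processing notes, and the strand setting is not given in the sources used here. The 5 entries for reads given to no gene, 72.52 to 76.78% of each table's total, were left out. CPM in the text are counts over the sum of gene counts (7078941 to 10948932 per library).

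Log2 fold changes, with SE, and adjusted p come from edgeR 4.0.16 (R 4.3.3): quasi-likelihood F-test, TMM, filterByExpr by group, 1 model of 14 libraries and 7 groups, Benjamini-Hochberg over 16155 genes, threshold 0.05. Alternatives used DESeq2 1.42.0, its size factors in edgeR (RLE), no or a stricter filter (1 CPM in 4 libraries), a replicate block, a set term, only the groups compared, and leaving out each library. Within-set values used a pseudocount of 1, and the likeness of genes a prior count of 3. Set 2 alone, DESeq2 with a set term and the within-set differences were chosen after seeing the data. So was the limit between sets, 55.54% for reads in no annotated gene as a share of these and the reads counted on genes.

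Same-numbered libraries deviated together (correlation 0.66 to 0.792 over 10 pairs). The number coincides with the library set, so a pairing by number cannot be told apart from the set. All 9 genes are named. From the other lists, up to 4 called genes with the largest change are named, and T and Tgif1 were named after their values were seen. A few results that these rules cover are not reported here. The members and lists were chosen with earlier results of these data known.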

Additional observations from a re-analysis of the deposited data

How the results depend on the processing

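Of the values under alternatives other than leaving out a library, 491 kept direction and side of the threshold, 35 passed it newly, 6 no longer passed it and 8 changed sign; without 1 library the numbers were 785, 9, 70 and 21. All sign changes were in values called in neither fit, and the cause was not tested. Against 0 called for 48 h over 24 h, DESeq2 called 1 of the 9 genes, no filter 1, the replicate block 3, the set term 2 and DESeq2 with a set term 3. Against 0 called for 24 h over 12 h, the replicate block and DESeq2 with a set term called 1 each. For RA over DMSO at 48 h (3 called), the set term and DESeq2 with a set term called 5 each; at 24 h (2 called), the fit of only the groups compared called 1. For 24 h of RA over 0 h (4 called), DESeq2 with a set term called 7. Apart from the fit of only the groups compared, these fits also called more of all genes. For 48 h over 24 h they called 669, 158, 2573, 1781 and 1889 genes in the order above, against 114. For 24 h over 12 h it was 1801 and 1555, against 2, and for RA over DMSO at 48 h 3892 and 3779, against 1286. For 24 h of RA over 0 h DESeq2 with a set term called 4617, against 1993. The fit of only the groups compared called 265 at 24 h over DMSO, against 305.

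The replicate block changed no call of the 9 genes beyond those given above, and pairing coincides with the library set, so these cannot be told apart. No paired analysis was possible for the DMSO comparisons because the DMSO libraries, 1 per time, carry no replicate number; the set term was fitted there instead. DMSO minus 0 h for Cdx4 was 0.46 with the set term and 0.62 with DESeq2 and the set term, and for Pbx2 -0.0938 and -0.10. In set 2 alone, Meis1 at 6 h was -0.46, Pknox1 0.0172 at 6 h and -0.0239 at 12 h, and Meis3 at 12 h 0.0822.

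Without 1 library, the genes called numbered 1 to 2 at 6 h, 1 to 3 at 12 h, 3 to 4 at 24 h and 3 to 6 at 48 h against 0 h, 0 to 2 at 24 h and 0 to 3 at 48 h against DMSO, 0 to 1 for 48 h over 24 h, and 0 to 0 for the other steps and for DMSO over 0 h. Log2 changes that crossed 0 without 1 library were, for DMSO over 0 h, Cdx1 (-1.10 to 0.70), Cdx2 (-1.33 to 0.25), Cdx4 (-1.14 to 0.52), Meis2 (-0.20 to 0.24), Meis3 (-0.0349 to 0.35) and Pbx2 (-0.0416 to 0.0729). At 6 h of RA they were Meis1 (-1.10 to 1.36) and Pknox1 (-0.25 to 0.0613), and at 12 h Meis1 (-0.17 to 1.76), Meis3 (-1.17 to 0.27) and Pknox1 (-0.00753 to 0.0578). Over DMSO they were Pknox1 at 24 h (-0.15 to 0.0164) and at 48 h (-0.25 to 0.0241), and Pbx3 at 48 h (-0.0343 to 0.76). Without 0 h replicate 1, Cdx2 was called at 24 h (1.66) and 48 h (1.19). Meis1 was called at 48 h without that library or either 6 h library. With 2 libraries per RA time and 1 per DMSO time, few libraries limit every estimate, and for Cdx4 low counts do too.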
